A study of Mus musculus with 32 samples.

Results

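The genes described are those of fatty acid oxidation and acyl-CoA metabolism: fatty acid binding proteins, acyl-CoA synthetases and thioesterases, carnitine palmitoyltransferases, and the enzymes and electron carriers of the beta-oxidation spiral in mitochondria and peroxisomes. Members were chosen by name alone, from symbols of the probe annotation that begin with Acaa or Acad, Acot, Acox, Acsl, Cpt1 or Cpt2, Ech, Eci, Etfa, Etfb or Etfd, Fabp and Hadh. This took 42 of the 9030 symbols on the array, carried by 53 of its 20794 probes. They were measured in brain, kidney, muscle and pancreas of male Nox4 knockout mice (-/-, C57BL/6, 17 weeks old) on 2-colour cDNA arrays. Nox4 is an NADPH oxidase that makes hydrogen peroxide, and the comparison asks what its loss does to transcript levels in each tissue. The 4 knockout animals each gave all 4 tissues, and every sample was put on a pair of dye-swapped arrays, 32 arrays in all. The other channel was always wild-type RNA pooled from males of the same strain and age. The labels name 4 animals for this pool, while the labelling protocol speaks of 6, so its size is not settled.

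Each value is the log2 ratio of knockout over pool, where 0 means equal and 1 means a doubling. That direction is likely and not certain: it follows from the design text and from which channel holds the sample's own RNA, and if it is inverted, above and below exchange places throughout. Since the pool is a single control sample, spread among wild-type animals is not part of any test. A ratio within a tissue gives no transcript level, so the tissue labels could not be checked against the levels of defining markers. In whole tissue, fewer cells of a type and less RNA per cell cannot be told apart.

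Fatty acids enter a cell bound to small carrier proteins and are activated to acyl-CoA by synthetases, and thioesterases can release them again. Long-chain acyl groups cross into mitochondria as carnitine esters, which Cpt1a and Cpt1b make at the outer membrane and Cpt2 turns back to acyl-CoA inside. Each turn of beta-oxidation then runs through a dehydrogenase, a hydratase, a second dehydrogenase and a thiolase, with the electrons of the first step handed on by the electron transfer flavoprotein; muscle and kidney rely heavily on this fuel, brain much less. Many of these genes are targets of the nuclear receptor PPAR alpha, which binds direct repeats of a short half-site.

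For the members around which the results turn, the 250 bases before the RefSeq transcript start (GRCm38.p6) are shown. Cpt2 is shown because it had the smallest p for a difference between tissues, Echdc3 because it lay below the pool on every kidney array, and Fabp1 because it is the member whose promoter holds a repeat of the PPAR kind and whose pancreas ratios split by animal and by dye. Capitals mark matches of the motifs searched, on either strand.

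Cpt2, chr4:107923590-107923839, minus strand, with capitals at the GC boxes:
Cpt2: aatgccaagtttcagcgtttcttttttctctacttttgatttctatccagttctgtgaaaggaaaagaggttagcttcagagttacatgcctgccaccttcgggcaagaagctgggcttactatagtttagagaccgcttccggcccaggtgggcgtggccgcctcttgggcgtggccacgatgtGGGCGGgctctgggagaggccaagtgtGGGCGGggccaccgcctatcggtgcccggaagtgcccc
Echdc3, chr2:6212995-6213244, minus strand, with capitals at a half-site and a GC box, both on the opposite strand:
Echdc3: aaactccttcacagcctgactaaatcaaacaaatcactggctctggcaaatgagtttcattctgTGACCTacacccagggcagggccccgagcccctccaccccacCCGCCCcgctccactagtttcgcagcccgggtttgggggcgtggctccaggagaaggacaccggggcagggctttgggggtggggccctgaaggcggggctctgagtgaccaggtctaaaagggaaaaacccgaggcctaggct
Fabp1, chr6:71199629-71199878, plus strand, with capitals at the repeat and at another half-site, both on the opposite strand:
Fabp1: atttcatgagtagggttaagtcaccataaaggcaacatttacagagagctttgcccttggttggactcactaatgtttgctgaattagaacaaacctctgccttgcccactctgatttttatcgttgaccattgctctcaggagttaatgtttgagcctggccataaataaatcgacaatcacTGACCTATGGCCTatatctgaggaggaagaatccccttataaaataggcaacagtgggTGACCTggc

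RefSeq promoters were matched for 35 of the 42 members, 41 promoters in all, and the same motifs were counted in 32851 promoters of the table. The exact direct repeat AGGTCANAGGTCA was in 0 of the 41 and in 0.0335% of all promoters. With any letter at the fourth place of each half-site (AGGNCANAGGNCA) it was in 1, that of Fabp1 at −67 to −55, which is 2.44% against 0.338% of all. The half-site AGGTCA alone, which is part of that repeat, was in 8 of 41 promoters (19.5%, against 14.0%): those of Acadm, Acadvl, Acot12, Acsl6, Cpt1c, Echdc3, Echs1 and Fabp1. The GC box GGGCGG was in 24 (58.5%, against 32.7%), with both matches of Cpt2 on the plus strand of the gene. These are matches of letters, and the arrays hold no measurement of binding.

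Against the wild-type pool, no member transcript passed the test in any tissue. Member means ran from −0.15 to 0.14 in brain and from −0.24 to 0.18 in kidney, and more widely in muscle (−0.49 to 0.27) and pancreas (−0.50 to 0.51). The test (limma, Benjamini-Hochberg adjusted p under 0.05 over all genes of a tissue) called 0 members in each tissue. Over all genes it called 0% in brain, muscle and pancreas, and in kidney 0.00595% (1 gene). The smallest adjusted p of a member was 0.775 (brain), 0.324 (kidney), 0.623 (muscle) and 0.995 (pancreas). At an unadjusted p under 0.05 there was 1 member of 41 tested in brain (2.44%, against 4.50% of all 16682 genes), 6 of 42 in kidney (14.3%, against 9.48% of 16797), 1 of 42 in muscle (2.38%, against 7.83% of 16610) and 4 of 42 in pancreas (9.52%, against 3.42% of 16297). Acad10, measured in only 2 brain animals, was the member not tested there.

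The middle of the group lay near that of the array as a whole. Taking brain, kidney, muscle and pancreas in turn, the median log2 ratio of the members was 0.01, −0.0029, −0.04 and −0.02, and that of all genes tested 0.01, 0.0026, −0.02 and 0.00062. Above the pool stood 24 of 41 members in brain, 19 of 42 in kidney, 17 of 42 in muscle and 15 of 42 in pancreas (58.5%, 45.2%, 40.5% and 35.7%), beside 53.5%, 51.5%, 41.5% and 50.3% of all genes. Every member lay within 0.25 of the pool in brain and kidney, where 95.8% and 98.1% of all genes did. In muscle 38 of 42 members did (90.5%, against 88.7%), and in pancreas 32 of 42 (76.2%, against 88.3%), the tissue where animals also differed most: members had a median SD over animals of 0.10 (brain), 0.09 (kidney), 0.19 (muscle) and 0.23 (pancreas), and all genes one of 0.13, 0.10, 0.17 and 0.21.

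**Figure D1:**
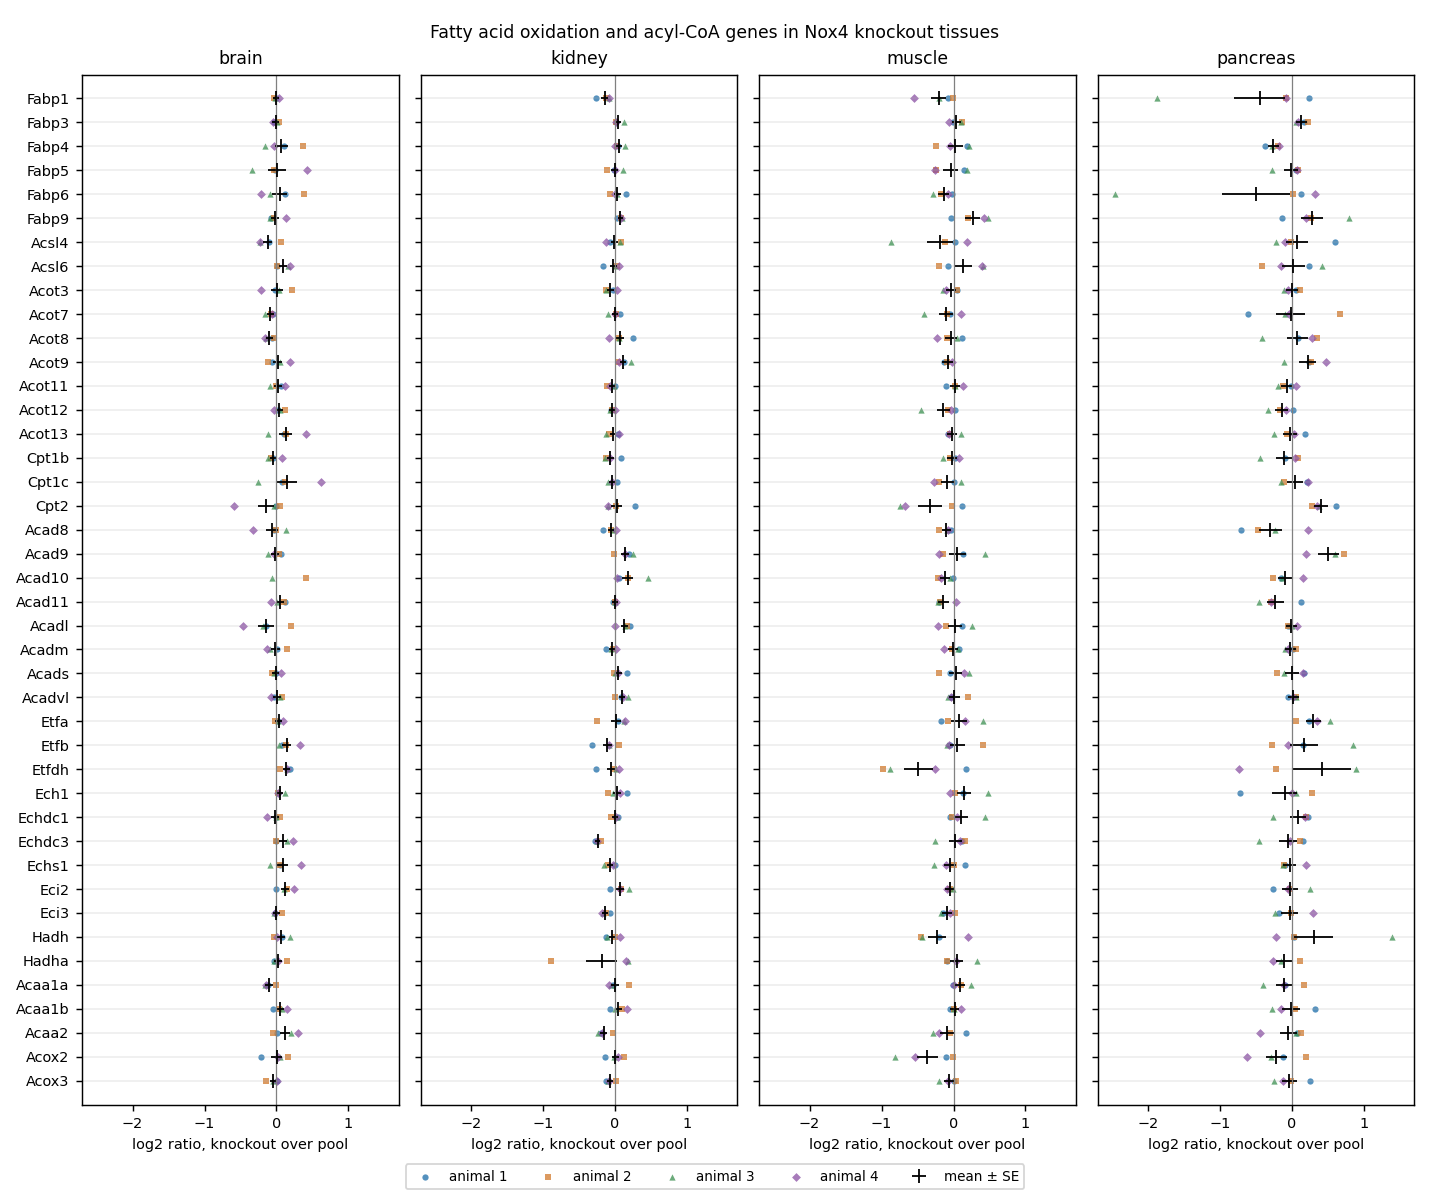
Log2 ratio of knockout over wild-type pool (x axis) for the 42 genes (y axis, ordered by role) in brain, kidney, muscle and pancreas. Coloured points are animals, each the mean of its 2 arrays, and black crosses are means ± SE over animals. Points crowd around 0 in brain and kidney and spread most in pancreas, where animal 3 reached −2.45 for Fabp6 and −1.87 for Fabp1.

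A stricter reading asked whether all animals lay on one side of the pool. In brain 4 members were above in all 4 animals and 3 below, where 8.91% and 6.71% of all genes with 4 animals were. In kidney 6 were above and 6 below (10.1% and 9.85% of all genes), and in muscle 0 above and 6 below (6.87% and 12%). In pancreas 3 were above and 1 below (5.42% and 5.13%). On all 8 arrays of a tissue, 1 member kept to one side in kidney (Echdc3, below) and 0 in brain, muscle and pancreas, where the shares of all genes were 1.46% in kidney, 0.897% in brain, 2.11% in muscle and 0.228% in pancreas. As shares of the 40 or 41 members with 4 animals, above and below, these counts are 9.76% and 7.32% (brain) and 15% and 15% (kidney). In muscle they are 0% and 14.6%, and in pancreas 7.5% and 2.5%. Member shares exceed those of all genes on both sides in brain and kidney, below the pool in muscle and above it in pancreas. They are smaller above the pool in muscle and below it in pancreas. These differences were not tested.

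Among the 6 fatty acid binding proteins, the carriers of fatty acids in the cytosol, Fabp4 was below the pool in every animal of pancreas, Fabp1 in every animal of kidney and muscle, and Fabp6 in every animal of muscle. Fabp4, the carrier typical of adipocytes and some macrophages, was at −0.37, −0.19, −0.29 and −0.18 in the 4 pancreas animals, a mean of −0.26 ± 0.08 (SE, n = 4; limma adjusted p = 0.995). All 4 animals were below the pool there, but the low values came from the arrays with the knockout in Cy5 (−0.72 to −0.35), and those with it in Cy3 lay at −0.40, 0.16, 0.15 and 0.03. In the other tissues Fabp4 averaged 0.07 in brain, 0.05 in kidney and 0.03 in muscle. Of the adipocyte markers 5 of 8 were on the array, with a median of −0.01 and a range of −0.22 to 0.18 in pancreas; their part in the Fabp4 value was not tested.

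Fabp1, the liver-type carrier, was at −0.26, −0.12, −0.09 and −0.09 in kidney, a mean of −0.14 ± 0.05. There Fabp1 averaged 0.09 with the knockout in Cy5 and −0.37 with it in Cy3. In muscle it was at −0.07, −0.0050, −0.20 and −0.55, a mean of −0.21 ± 0.10, with animal 4 the lowest, animal 2 near 0 and 4 of 8 arrays above the pool. In pancreas it stood at 0.23, −0.09, −1.87 and −0.08 (mean −0.45 ± 0.35), so that the mean there rested on animal 3. Fabp6, the ileal bile acid carrier, showed the same animal apart in pancreas, with 0.13, 0.01, −2.45 and 0.31; a single array gave −5.54 and its dye-swapped partner 0.63. In muscle Fabp6 averaged −0.14 ± 0.07, from −0.41 with the knockout in Cy5 and 0.14 with it in Cy3. Fabp9, the testis-type carrier, was at −0.04, 0.21, 0.48 and 0.43 in muscle (mean 0.27 ± 0.10; limma adjusted p = 0.623), above the pool in 3 of 4 animals. With the knockout in Cy5 the muscle mean of Fabp9 was 0.05, and with it in Cy3 0.49. Fabp5, the epidermal-type carrier, averaged between −0.04 and 0.01 over the tissues. Fabp3, the heart and muscle carrier, averaged −0.01 (brain), 0.04 (kidney), 0.04 (muscle) and 0.13 (pancreas), where its animals lay at 0.17, 0.22, 0.05 and 0.08.

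The 2 synthetases, which activate long-chain fatty acids, scattered between animals. Acsl4, which prefers arachidonic acid, was at −0.11, 0.06, −0.22 and −0.23 in brain (mean −0.12 ± 0.07) and at 0.03, −0.11, −0.86 and 0.19 in muscle, where animal 3 alone was low. Acsl6, the synthetase best known from brain, averaged 0.09 (brain), −0.02 (kidney), 0.13 (muscle) and 0.02 (pancreas). Of the 7 thioesterases, which split acyl-CoA, those averaging above the pool were 5 (brain), 2 (kidney), 1 (muscle) and 2 (pancreas). Their brain means lay between −0.10 (Acot8, a peroxisomal enzyme, below in all 4 animals) and 0.13 (Acot13). Acot9, a mitochondrial thioesterase, was at 0.24, 0.26, −0.11 and 0.48 in pancreas (mean 0.22 ± 0.12), and at 0.12, 0.05, 0.22 and 0.05 in kidney. Its value in pancreas animal 1 averaged arrays at 2.34 and −1.86. Acot3 averaged between −0.07 and 0.01 over the tissues, Acot11, induced by cold in brown fat, between −0.07 and 0.02, and Acot12, which splits acetyl-CoA, between −0.15 and 0.04. Of the thioesterases Acot7, a cytosolic enzyme abundant in neurons, scattered most, with −0.62, 0.67, −0.10 and −0.04 in pancreas.

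Cpt2, the inner-membrane carnitine palmitoyltransferase, was the member with the smallest p for a difference between tissues. In pancreas its animals were at 0.61, 0.28, 0.37 and 0.34, a mean of 0.40 ± 0.09 (SE, n = 4; limma adjusted p = 0.995), with 6 of 8 arrays above the pool. In muscle they were at 0.11, −0.02, −0.74 and −0.67, a mean of −0.33 ± 0.17 (limma adjusted p = 0.649), so animals 3 and 4 were low and animals 1 and 2 near 0. The muscle arrays averaged −0.59 with the knockout in Cy5 and −0.07 with it in Cy3. No muscle animal reached the lowest pancreas animal. In brain they were at −0.01, 0.04, −0.04 and −0.58, where the low animal 4 came from a single array at −1.16, and in kidney at 0.28, 0.01, −0.10 and −0.10. Cpt1b, the muscle form of the outer membrane, averaged −0.04 (brain), −0.06 (kidney), −0.02 (muscle) and −0.11 (pancreas). Cpt1c, a neuronal relative found in the endoplasmic reticulum with little transferase activity, averaged 0.14, −0.04, −0.09 and 0.04 in that order.

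The 8 acyl-CoA dehydrogenases catalyse the first step of the spiral, each for its own chain length or branched acid. The enzymes for very long, medium and short chains stayed near the pool: Acadvl averaged between 0.01 and 0.10 over the tissues, Acadm between −0.05 and −0.01, and Acads between −0.01 and 0.05. Acadl, the long-chain enzyme, was at 0.21, 0.16, 0.14 and −0.0020 in kidney (mean 0.13 ± 0.05; limma adjusted p = 0.498) and at −0.14, 0.21, −0.18 and −0.47 in brain. Acad9, which also assembles respiratory complex I, was at 0.73, 0.60 and 0.19 in the 3 pancreas animals measured on both arrays, a mean of 0.51 ± 0.14. The same animals lay at −0.16, 0.36 and −0.12 with the knockout in Cy5 and at 1.61, 0.84 and 0.50 with it in Cy3, so the high mean came from one orientation.

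Acad9 averaged 0.14 ± 0.05 in kidney, from 0.19, −0.01, 0.25 and 0.14. There too the orientations differed, with 0.002 for the knockout in Cy5 and 0.28 for it in Cy3. Acad10 was at 0.05, 0.18, 0.45 and 0.03 in kidney (mean 0.18 ± 0.08, limma adjusted p = 0.525), above the pool in every animal. Only 5 of 8 kidney arrays were above it, and animal 4 averaged arrays at 0.87 and −0.82. Acad11, active on very long chains, was at 0.13, −0.30, −0.46 and −0.30 in pancreas (mean −0.23 ± 0.12), with 3 of 4 animals below. Acad8, the isobutyryl-CoA dehydrogenase of valine breakdown, was at −0.71, −0.47, −0.24 and 0.21 in pancreas (mean −0.30 ± 0.16), and below the pool in all 4 muscle animals at −0.20 to −0.04.

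The electron transfer flavoprotein takes the electrons from all these dehydrogenases, and its oxidoreductase Etfdh passes them to ubiquinone. Etfa, the alpha subunit, was at 0.24, 0.05, 0.53 and 0.35 in pancreas, a mean of 0.29 ± 0.10 (limma adjusted p = 0.995) with 7 of 8 arrays and all 4 animals above the pool. In brain, kidney and muscle it averaged 0.03, 0.02 and 0.08. Etfb, the beta subunit, was at 0.08, 0.13, 0.04 and 0.32 in brain (mean 0.14 ± 0.06) and at 0.15, −0.28, 0.85 and −0.05 in pancreas, and was thus not on one side there.

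Etfdh was at 0.19, 0.05, 0.15 and 0.15 in brain, a mean of 0.13 ± 0.05 (limma adjusted p = 0.775) with all 4 animals above the pool. In muscle it was at 0.18, −0.98, −0.89 and −0.26, a mean of −0.49 ± 0.21 (limma adjusted p = 0.623), and in pancreas at 1.73, −0.22, 0.89 and −0.74. The muscle arrays split by dye: the 4 with the knockout in Cy5 averaged 0.61, all above 0. The 4 with it in Cy3 averaged −1.59, all below. In pancreas, Etfdh of animal 3 was above the pool on both arrays (1.628 and 0.159). Animal 4 was below it on both (−0.395 and −1.085). The array of pancreas animal 1 with the knockout in Cy5 reached 4.31. All 3 genes of this step averaged above the pool in brain and in pancreas, 1 of 3 did in kidney and 2 of 3 in muscle. In brain, Etfa, Etfb and Etfdh averaged 0.06, 0.35 and 0.32 with the knockout in Cy5. With it in Cy3 they averaged −0.01, −0.07 and −0.05. In pancreas the animals of Etfb and Etfdh lay on both sides of the pool.

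**Figure D2:**
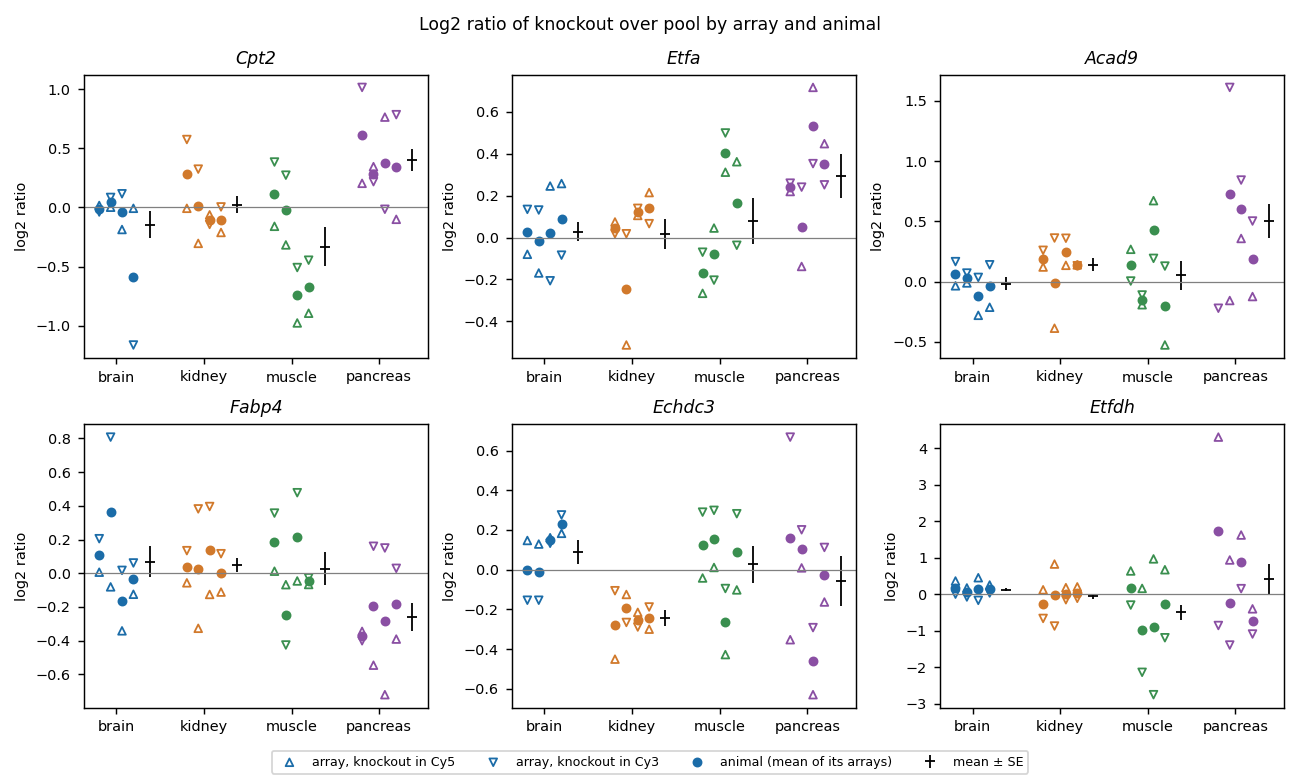
Log2 ratio of knockout over pool (y axis, scaled for each gene) in the 4 tissues (x axis) for Cpt2, Etfa, Acad9, Fabp4, Echdc3 and Etfdh. Open triangles are arrays (pointing up, knockout in Cy5; pointing down, knockout in Cy3), filled points are animals and black bars mean ± SE. Echdc3 lies below 0 on all 8 kidney arrays, Cpt2 animals of pancreas lie above those of muscle, and the muscle arrays of Etfdh split by dye.

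Hydratases, which add water to the double bond, and isomerases, which move it into place, held the smallest adjusted p of any member in any tissue. Echdc3, a hydratase-domain protein of mitochondria, was at −0.28, −0.20, −0.25 and −0.24 in kidney, a mean of −0.24 ± 0.04 (SE, n = 4; limma adjusted p = 0.324). All 8 kidney arrays were below the pool, from −0.45 to −0.11, and both dye orientations had like means (−0.27 and −0.21). In the other tissues Echdc3 lay on both sides of 0, at −0.0035, −0.01, 0.15 and 0.23 in brain, 0.12, 0.15, −0.26 and 0.09 in muscle, and 0.16, 0.10, −0.46 and −0.03 in pancreas. In the kidney, Slc22a6, an organic anion transporter of the proximal tubule, averaged −0.33 ± 0.05 (limma adjusted p = 0.324), and the proximal tubule markers, 4 of 10 on the array, had a median of −0.06 and a range of −0.33 to 0.10; their part in the Echdc3 value was not tested.

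Eci3, a peroxisomal isomerase that arose beside Eci2, was at −0.07, −0.12, −0.17 and −0.18 in kidney (mean −0.13 ± 0.04; limma adjusted p = 0.471), below the pool in every animal. Eci2 averaged 0.07 there and 0.12 ± 0.06 in brain, where 3 of 4 animals were above. Ech1, a dienoyl-CoA isomerase, was at 0.13, 0.01, 0.48 and −0.04 in muscle (mean 0.15 ± 0.10) and at −0.72, 0.27, 0.05 and −0.01 in pancreas. Echs1, the short-chain hydratase of the spiral, averaged 0.09 (brain), −0.07 (kidney), −0.05 (muscle) and −0.03 (pancreas). Echdc1, which removes ethylmalonyl-CoA, averaged between −0.02 and 0.11.

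Both hydroxyacyl-CoA dehydrogenases carry out the second oxidation. Their means were small beside the opposed means of the dye orientations, apart from Hadha in kidney. Hadh, the short-chain enzyme, averaged 0.06 (brain), −0.04 (kidney), −0.23 (muscle) and 0.30 (pancreas), the last with animals at 0.03, 0.03, 1.38 and −0.23. Hadha, the alpha subunit of the trifunctional protein, averaged 0.02 in brain and 0.04 in muscle; it had 3 animals in kidney, at −0.89, 0.18 and 0.16, and 3 in pancreas, at 0.11, −0.16 and −0.27. Among the thiolases, which cleave off acetyl-CoA, Acaa2 of mitochondria was at −0.19, −0.02, −0.24 and −0.18 in kidney (mean −0.16 ± 0.05; limma adjusted p = 0.471). It lay below the pool in every kidney animal and averaged 0.12 in brain, −0.09 in muscle and −0.05 in pancreas. Its kidney arrays averaged −0.26 with the knockout in Cy5 and −0.05 with it in Cy3.

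Of the peroxisomal thiolases, Acaa1a was at −0.11, −0.0020, −0.15 and −0.15 in brain (mean −0.10 ± 0.05) and averaged 0.09 ± 0.07 in muscle; Acaa1b averaged between −0.02 and 0.05. Acox2, the peroxisomal oxidase of branched chains and bile acid precursors, was at −0.10, −0.0045, −0.82 and −0.53 in muscle (mean −0.36 ± 0.15; limma adjusted p = 0.623). No muscle animal was above the pool, and animals 3 and 4 were again the low ones. The muscle arrays of Acox2 averaged −0.09 with the knockout in Cy5 and −0.64 with it in Cy3. Acox3 averaged between −0.07 and −0.04 over the tissues. Acaa1a and Acaa1b, Eci2 and Eci3, the Acot3 cluster and the binding proteins are close relatives, so on cDNA probes each may take up signal from the others.

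Between tissues, the log2 ratios of 41 members were compared in a single fit that did not pair the 4 tissues by animal. In it 0 members passed in any of the 6 pairs. Of the 16185 genes tested, the fit called 0% between brain and kidney, 0.711% between brain and muscle, 0% between brain and pancreas, 0.0185% between kidney and muscle, 0% between kidney and pancreas and 0.933% between muscle and pancreas. The F test of any difference over the tissues called 0 members and 0.297% of all genes. At an unadjusted p under 0.05 there were 2, 0, 4, 0, 4 and 5 members in those pairs (4.88%, 0%, 9.76%, 0%, 9.76% and 12.2%), beside 2.94%, 9.60%, 8.33%, 6.40%, 5.74% and 13.2% of all genes. All tissues come from the same 4 knockout animals and were set against the same wild-type pool animals as far as the labels say. A fit that paired the tissues by animal called 1 member, Cpt2 between muscle and pancreas, beside 0.488% of all genes.

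Cpt2 came closest. The difference of log2 ratios, muscle minus pancreas, was −0.73 ± 0.19 (SE; limma adjusted p = 0.0829), with all 4 muscle animals below all 4 pancreas animals. With the animal as a replicate block in the paired fit, the difference had an SE of 0.14 and an adjusted p of 0.0489, which passes. Over 16 alternatives the difference kept its sign in 16, ran from −0.89 to −0.16, and had adjusted p values between 0.0417 and 0.678, under the threshold in 2. Order by mean ran from pancreas (0.40) over kidney (0.02) and brain (−0.15) to muscle (−0.33), and neighbours in that order did not differ beyond the threshold: kidney minus pancreas was −0.38, brain minus kidney −0.17 and brain minus muscle 0.18, each with an SE of 0.19.

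The other members with the smallest F test p were Acad9 (limma adjusted p = 0.419), Fabp4 (0.532), Acad11 (0.598), Echdc3 (0.617) and Acot9 (0.643), after Cpt2 (0.297). For Acad9 the difference brain minus pancreas was −0.52 ± 0.15 (−0.02 against 0.51; limma adjusted p = 0.402), and with the Cy3 arrays turned the sign of that difference turned too, to 0.36. Fabp4 averaged 0.33 ± 0.12 more in brain than in pancreas (0.07 against −0.26; limma adjusted p = 0.508), positive in all 16 alternatives, from 0.04 to 0.39. Acad11 differed by 0.27 ± 0.11 between the same tissues (0.04 against −0.23; limma adjusted p = 0.547). Echdc3 averaged 0.33 ± 0.13 more in brain than in kidney (0.09 against −0.24). In that single fit it was far from the threshold, since the smallest limma adjusted p of any member in that pair was 0.999954. The Echdc3 difference was positive in all 16 alternatives, from 0.095 to 0.48, and passed in 0 of them. Its smallest limma adjusted p among them was 0.0777, near the threshold. For Acot9 the difference muscle minus pancreas was −0.30 ± 0.12 (limma adjusted p = 0.297), with 3 animals in muscle.

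Many members differed between the dye orientations. For 37 members measured on all 32 arrays, the mean with the knockout in Cy5 was set against that with it in Cy3. The difference had the same sign in all 4 tissues for 16 of them (7 higher in Cy5 and 9 higher in Cy3), which is 43.2%, where 55.1% of 14756 genes did. Its median size in brain, kidney, muscle and pancreas was 0.13, 0.18, 0.18 and 0.38 among members, and 0.18, 0.17, 0.26 and 0.46 among all genes. Etfdh had the largest, with 2.21 in muscle and 2.41 in pancreas.

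Hadha and Hadh show the pattern plainly, except for Hadha in kidney. Hadha, with the knockout first in Cy5 and then in Cy3, averaged −0.32 and 0.37 in brain and −0.40 and 0.41 in kidney. It averaged −0.49 and 0.57 in muscle, and −0.61 and 0.53 in pancreas. The kidney means rested on animal 2 at −1.44 in Cy5 and animal 1 at 1.51 in Cy3. Kidney animals 3 and 4 lay above the pool in both orientations. Hadha lacked some arrays and is not among the 37 members above. Hadh ran the other way in each tissue, with 0.30 and −0.18 in brain, 0.39 and −0.47 in kidney, 0.59 and −1.04 in muscle, and 1.29 and −0.68 in pancreas. Fabp1 sided with Hadh, with 0.45 and −1.35 in pancreas. Where every ratio has the same direction, averaging an animal's arrays cancels the part of such a difference that is equal and opposite. What remained was not always small, with pancreas means of 0.30 for Hadh and −0.45 for Fabp1.

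**Figure D3:**
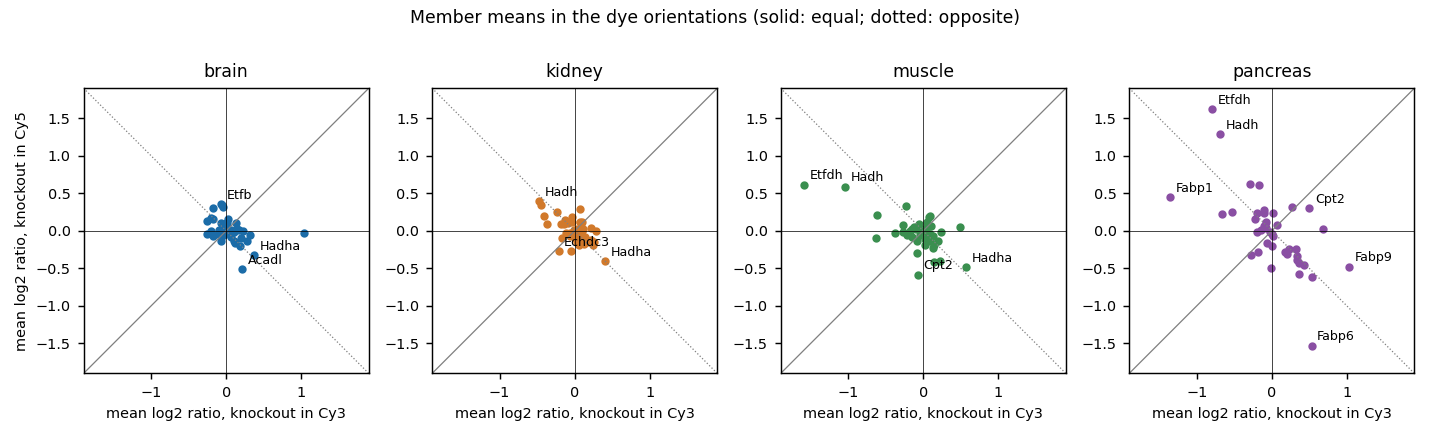
Mean log2 ratio of each member over the arrays with the knockout in Cy5 (y axis) against that over the arrays with the knockout in Cy3 (x axis), 1 panel per tissue, 1 point per gene. The solid line marks equal values and the dotted line opposite values. In pancreas and muscle, outlying genes such as Etfdh, Hadh and Hadha have means of opposite sign in the orientations. Hadha lies close to the dotted line there, Etfdh and Hadh farther from it. Echdc3 of kidney lies close to the solid line.

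If the deposited ratios of the swapped arrays had not been turned to run knockout over pool, the same values would read differently. With the sign of the Cy3 arrays turned, 8 members were called in pancreas, where 18.9% of all genes were, and 1 in muscle, where 5.29% were. In brain and kidney 0 members were called, beside 0% and 0.00595% of all genes. The pancreas members were then Hadh at 0.99, Fabp1 at 0.90, Acox2 at 0.44 and Acot12 at 0.39, and below the pool Cpt1b at −0.47, Fabp5 at −0.44, Echs1 at −0.39 and Acot13 at −0.36. In muscle it was Hadha at −0.53. The share of members called in pancreas (19.0%) is close to that of all genes. Turning also moved means named above across 0. Among them were Cpt2 in pancreas, then at −0.10, Etfdh in muscle, then at 1.10, and Acox2 in muscle, then at 0.27. Echdc3 in kidney kept its side but shrank from −0.24 to −0.03. Across all probes the 2 arrays of the same animal correlated at −0.58 to 0.06 and arrays of the same orientation at 0.03 to 0.48, a description over probes that share their dye.

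For 8 members several probes were spotted, and they did not always show the same orientation difference. Of the 3 Fabp3 probes, the first had −0.30 ± 0.20 (SD over 4 arrays) with the knockout in Cy5 and 0.63 ± 0.17 in Cy3 in pancreas, and the last had 1.01 ± 0.75 and −0.77 ± 0.58, while their means over animals were 0.17 and 0.12. The probes of Acsl6 also ran opposite ways in every tissue, in pancreas with 0.93 and −0.69 for the first and −0.46 and 0.29 for the second. The 3 Acot7 probes averaged −0.15, 0.46 and −0.38 in pancreas and between −0.06 and 0.04 in kidney. Of the 3 Acox3 probes, one was at −0.23 ± 0.05 (SD, n = 4) in kidney on both orientations (−0.20 and −0.26), and the others were at −0.03 and 0.03.

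**Figure D4:**
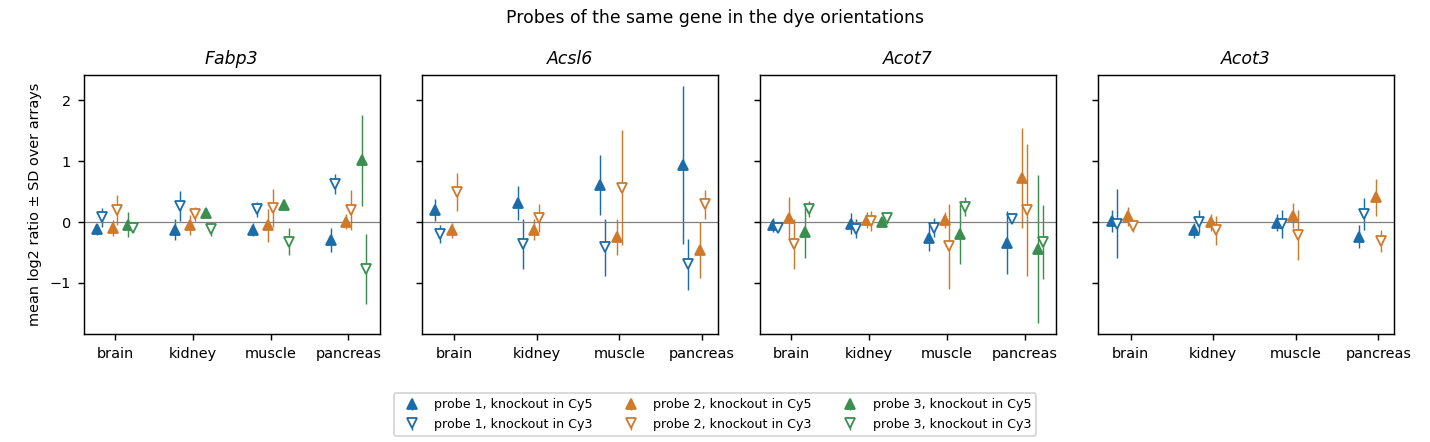
Mean log2 ratio ± SD over arrays (y axis) of each probe of Fabp3, Acsl6, Acot7 and Acot3 in the 4 tissues (x axis). Filled triangles are arrays with the knockout in Cy5 and open triangles those with it in Cy3, and each colour is 1 probe. The first and last probes of Fabp3, and both probes of Acsl6, lie on opposite sides of 0 in the same orientation in pancreas.

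The genes around the members, taken from 7 lists (94 of 143 entries had a probe), had list medians near 0, and single genes of these lists reached from −0.32 to 0.26 in brain and from −0.41 to 1.002 in muscle. Limma called 0 of them in any tissue. Above and below 0 stood 50 and 42 (brain), 47 and 46 (kidney), 34 and 57 (muscle), and 50 and 39 (pancreas), with medians of 0.01, 0.0014, −0.04 and 0.01. The smallest adjusted p was that of Esrrg in muscle, a nuclear receptor that drives oxidative metabolism, at 1.002 ± 0.17 (limma adjusted p = 0.395), above the pool in all 4 animals. The regulators stood 6 above and 12 below in brain, 11 and 8 in kidney, 8 and 10 in muscle (lowest −0.41), and 9 and 8 in pancreas. Sirt1, a deacetylase, was at −0.18 in brain, Esrrb, a relative of Esrrg, at 0.09 in kidney and Ppargc1a, the coactivator of PPAR receptors, at 0.27 ± 0.11 in pancreas.

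The other oxidation enzymes stood 10 above and 8 below in brain, 11 and 7 in kidney, 8 and 10 in muscle, and 9 and 8 in pancreas. Among them Mmut, the methylmalonyl-CoA mutase, was at −0.24 ± 0.08 in brain, Gcdh, the glutaryl-CoA dehydrogenase, at −0.16 ± 0.04 in kidney, Pccb, a propionyl-CoA carboxylase subunit, at −0.24 ± 0.08 in muscle and Auh, a hydratase of leucine breakdown, at −0.19 ± 0.10 in pancreas. These 4 were below the pool in every animal measured and did not pass. Genes that make, bind or split acyl-CoA stood 7 above and 9 below in brain, 5 and 11 in kidney, 6 and 10 in muscle, and 8 and 8 in pancreas. Of these, the synthetase Acsm3 was at 0.19 ± 0.06 in brain, the CoA hydrolase Nudt19 at −0.20 ± 0.06 in kidney, the acyl-CoA binding protein Acbd3 at 0.57 ± 0.16 in muscle and the hydrolase Nudt7 at −0.23 ± 0.08 in pancreas. Of the ketone body genes only 3 of 8 were on the array, and Bdh2 was at −0.12 ± 0.05 in brain, 0.05 in kidney and 0.08 in muscle, and Oxct1 at 0.02 in pancreas.

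The targets of PPAR stood 7 above and 2 below in brain (median 0.04), 6 and 3 in kidney (0.02), 4 and 5 in muscle (−0.04), and 4 and 5 in pancreas (−0.01). The genes of smallest p did not always lie on the side of most of their list: Angptl4, an inhibitor of lipoprotein lipase, was at −0.14 ± 0.05 in kidney, Creb3l3 at −0.15 ± 0.08 in brain, Me1, the cytosolic malic enzyme, at −0.11 ± 0.06 in muscle and Plin4, a lipid droplet protein, at 0.11 ± 0.11 in pancreas. Lipogenesis genes stood 14 above and 5 below in brain (median 0.04), 8 and 11 in kidney (−0.03), 4 and 14 in muscle (−0.05), and 13 and 5 in pancreas (0.05). Of these Acly, which makes cytosolic acetyl-CoA, was at −0.16 ± 0.05 in kidney and 0.20 ± 0.08 in muscle, Scd1 at −0.15 ± 0.06 in brain and Elovl6, a fatty acid elongase, at 0.38 ± 0.15 in pancreas. Lipolysis genes stood 4 above and 5 below in brain, 5 and 4 in kidney, 3 and 6 in muscle, and 5 and 4 in pancreas. There Lpl was at −0.12 ± 0.06 in brain and 0.09 ± 0.05 in kidney, Lmf1, which matures it, at 0.20 ± 0.08 in muscle and Pnpla2 at 0.24 ± 0.13 in pancreas. Cell type markers, 15 lists with 79 of 124 entries on the array, had list medians between −0.12 and 0.22, and limma called 0 of them in any tissue.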

How the data were processed

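The authors deposited 1 log2 ratio per probe and array; array medians lay between −0.07 and 0.05, with 19815 to 20684 values per array. Base 2 is assumed from the largest values, which reach 17.2. Scanner, background correction and normalisation: not given in the sources used here. Signal over background was not used; the number of arrays limits the precision. RNA was labelled indirectly with Cy3 or Cy5, per the labels' protocols. Values beyond 8 in size (1844 of 655162, or 0.281%; 15.45 or more, against 7.358 at most among the rest) were all positive on Cy5 knockout arrays (920), all negative on Cy3 knockout arrays (924), and were taken as missing. Of the 1696 member values, 2 were of this kind and 8 were missing as deposited.

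Symbols came from the platform's probe annotation: 12771 probes had 1 symbol and 8023 none. The 2 arrays of an animal were averaged, both being required, then the probes of a symbol. Probes with no symbol were kept singly, giving up to 17053 units (genes, for short). Per tissue, limma 3.58.1 (R 4.3.3) tested the animal means against 0 (lmFit and eBayes, two-sided, at least 3 animals) with Benjamini-Hochberg adjustment over all genes and a threshold of 0.05. Between tissues, a fit to 16 values per gene shared the spread, with 12 residual degrees of freedom. SE is limma's, moderated; SD is the plain spread. The labels give the same animals for all tissues, so animal numbers pair the tissues, and the paired fit is an alternative. Members of the gene group, the gene lists and the tests were chosen with earlier results of these data known. Named genes were, per tissue, the 3 members above and 3 below 0 of smallest p with 4 animals, the 6 of smallest F test p, and the gene of smallest p of each pathway list; other members are given by role. The scripts were tested on simulated data. Alternatives were kept extreme values, turned signs, centred or scaled arrays, 1 array per animal, an 8-array fit with a dye term, single orientations, single probes, all 4 animals, robust moderation, array weights, only the tissues compared, the replicate block and each animal left out. Promoter sequences are RefSeq's (GRCm38.p6).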

Additional observations from a re-analysis of the deposited data

Results flagged for a closer look

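In 15 of 162 combinations of member and tissue with 4 animals, 1 animal stood far from the others by Dixon's test. Chance marks about 1 in 20 groups, or 8.1 of 162. All genes with 4 animals were marked too, for animals 1 to 4 in turn. The shares were 0.799%, 1.17%, 0.995% and 4.46% in brain and 3.13%, 1.42%, 0.973% and 0.714% in kidney. They were 0.48%, 0.724%, 4.66% and 1.41% in muscle and 1.63%, 0.742%, 2.87% and 1.08% in pancreas. An excess of members over these shares was not tested. In pancreas 5 of the 7 marks were animal 3: Fabp6 at −2.45 (others 0.01 to 0.31), Fabp1 at −1.87 (others −0.09 to 0.23), Hadh at 1.38 (others −0.23 to 0.03), Fabp5 at −0.27 (others 0.05 to 0.09) and Echdc1 at −0.26 (others 0.19 to 0.23). That animal stood apart for 2.87% of all 15364 genes with 4 animals, and for Fabp6 the distance came from 1 array, at −5.54, while for Fabp1 both of its arrays, at −0.59 and −3.16, were the lowest of their dye orientation. Pancreas animal 4 stood apart for Acaa2, at −0.45, and Echs1, at 0.20.

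In muscle the animal apart was animal 2 for Etfb, at 0.41, and Acadvl, at 0.20, animal 3 for Echdc3, at −0.26, and Acot13, at 0.10, and animal 4 for Acad11, at 0.039 with the others at −0.21 to −0.18. In brain it was animal 4 for Cpt2, at −0.58 with the others at −0.04 to 0.04, and animal 3 for Ech1, at 0.11. In kidney it was animal 3 for Fabp3, at 0.13 with the others at 0.01 to 0.02. Over all genes, brain animal 4 stood apart for 4.46% and muscle animal 3 for 4.66%.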

How the results depend on the processing

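Of the counts and medians, 206 recomputed values stayed close to the reported ones and 16 did not. With the Cy3 arrays turned, members called were 1 in muscle, 8 in pancreas, 3 between brain and pancreas (Acot12, Cpt1b, Fabp1) and 1 in the F test (Cpt1b), and the member medians were −0.015 in kidney and −0.0022 in muscle. With arrays centred and scaled these medians were −0.019 and −0.011. With only the arrays of the knockout in Cy5 the muscle median was −0.018, and 1 member was called between brain and pancreas (Echs1, 0.44) and 1 between muscle and pancreas (Cpt2, −0.89). With only those of the knockout in Cy3 the medians were 0.034 in kidney and 0.018 in muscle, and 1 member was called between brain and pancreas (Acot12, 0.60). The replicate block of the paired fit called 1 member between muscle and pancreas (Cpt2) and changed no other call among members. Over all genes it called 32 between brain and muscle where the unpaired fit called 115, 0 against 3 between kidney and muscle, 79 against 151 between muscle and pancreas, and 0 against 48 in the F test. With 1 animal left out the muscle median ran from −0.049 to −0.016, the last without animal 4, and no member was called.

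Of the named members' means, 273 recomputed values kept their side and 15 reversed. Turned Cy3 arrays gave Eci2 −0.02, Acaa1a 0.10 and Acsl4 0.053 in brain, Acad9 −0.14, Acadl −0.091 and Eci3 0.040 in kidney, Fabp9 −0.22, Acaa1a −0.022, Acox2 0.27 and Etfdh 1.10 in muscle, and Cpt2 −0.10 in pancreas. The Cy5 orientation alone gave Etfdh 0.61 in muscle. The Cy3 orientation alone gave Etfdh −0.046 and Etfb −0.066 in brain and Acot9 −0.17 in pancreas. The cause of these shifts was not tested. The direction of the ratios, the pool of 1 control sample and 4 animals a tissue limit every value given, and a mean that missed the threshold is not shown to equal the pool.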
